A study of Mus musculus with 9 samples.

Results

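The cytosolic and mitochondrial heat shock chaperones are the proteins that fold new chains, refold damaged ones and carry client proteins to their partners, together with the factors that switch their genes on. They were taken here as 35 named genes, found by symbol among the 16876 genes of a table of expression in mouse natural killer (NK) cells. By role they are 6 HSP70 and HSP110 chaperones, 4 J-domain partners of HSP70, 3 other HSP70 cochaperones, 2 cytosolic HSP90 chaperones, 6 HSP90 cochaperones, 1 small heat shock protein, 3 mitochondrial chaperones, the 8 subunits of the CCT chaperonin and 2 heat shock transcription factors. A filter on low counts kept 34 of the 35, and left out Hspb1.

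NK cells are lymphocytes that kill infected and tumour cells, and TGF-β is a cytokine that restrains them. The cells came from femur marrow of C57BL/6 mice, grown in MEM-α for 4 days with IL-7, Flt3L, SCF and IL-15, after which IL-2 (20 ng/mL) and IL-15 (50 ng/mL) were given for a further week. SIS3_TGFb cells (n = 3 libraries) got SIS3, a small molecule inhibitor of the TGF-β signal carrier Smad3, at 10 µM for 3 h, followed by TGF-β1 at 5 ng/mL for 3 h. TGFb cells (n = 3) got only the 3 h of TGF-β1 at 5 ng/mL, and Ctrl cells (n = 3) were left untreated. The titles of the SIS3_TGFb samples name SIS3 only, and their treatment text, which adds TGF-β1, was followed here. All 3 groups share the marrow culture protocol and its cytokines. On that reading SIS3 was not given alone to any group, and the labels name no solvent for the other groups, so an action of SIS3 of its own and an action through TGF-β signalling cannot be told apart.

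HSP70 proteins hold short stretches of unfolded chain in a cycle driven by ATP. J-domain proteins bring them clients, and exchange factors such as HSP110 and BAG proteins let the clients go. HSP90 acts later, on nearly folded clients such as kinases and steroid receptors, and takes some of them over from HSP70 through the adaptor HOP. CCT is a barrel of different subunits that folds actin and tubulin, and the HSP60 and HSP10 pair does the like inside mitochondria. In resting cells the transcription factor HSF1 is held back by chaperones. Under heat or other protein damage it binds heat shock elements, which are repeats of the letters GAA and their reverse complement TTC, and raises many of these genes.

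Heat shock elements were looked for in the RefSeq promoters of GRCm38.p6, from 250 bases before to 50 after each start, which were there for 28 of the 35 genes. Hspa8, Hspa9, Hsp90aa1, Hsp90ab1, St13, Cct4 and Hsf1 had no promoter there and were not searched. The motif searched had 3 units, GAANNTTCNNGAA or TTCNNGAANNTTC, which are each other's reverse complement, so that both strands were covered. It was present for 4 of the 28, Hspd1, Hspe1, Hsph1 and Chordc1 (14.3%), and for 179 of all 27025 genes with a promoter there (0.662%). Hspd1 and Hspe1 each count although they hold the same site, since from the Hspd1 start used below they are transcribed away from each other from a shared stretch. A 2-unit motif, GAANNTTC or TTCNNGAA, each its own reverse complement and both contained in the longer motif, was present for 15 of the 28 (53.6%) and for 17.0% of all genes. The matches are printed because the 4 genes that hold them are described below, and Hspd1 and Hspe1 differ in their values although they share the stretch. Capitals mark the bases covered by matches of the 3-unit motif. A match is a description and not a site shown to be bound. Only exact units within this window were searched, so a gene without a match is not shown to lack a heat shock element. The stretch between the Hspe1 start at 55088148 (plus strand) and an Hspd1 start at 55087932 (minus strand) is printed whole as the plus strand, chr1:55087933-55088147, with its matches ending 71 bases before the Hspe1 start. RefSeq lists another Hspd1 start as well, at 55088243, which lies beyond the Hspe1 start. From that start the printed stretch lies inside the Hspd1 gene, and its own promoter held no match of the 3-unit motif. The Chordc1 stretch is chr9:18292260-18292288 on the plus strand, with matches over positions -4 to 19 from its start. The Hsph1 stretch is chr5:149636287-149636308 on the minus strand, with its match at positions 37 to 49 from the start at 149636336, and RefSeq lists another Hsph1 start here too.
Hspe1 and Hspd1: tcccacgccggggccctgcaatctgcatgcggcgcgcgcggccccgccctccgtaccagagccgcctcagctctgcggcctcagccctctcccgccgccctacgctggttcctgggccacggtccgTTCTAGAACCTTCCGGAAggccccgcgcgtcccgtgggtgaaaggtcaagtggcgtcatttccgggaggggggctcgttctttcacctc
Chordc1: ccgGAACGTTCGGGAAAATTCCTGAAgca
Hsph1: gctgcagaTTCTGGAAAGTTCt

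Library totals lay between 15714973 and 16718673 expected counts, and TMM factors between 0.956 and 1.05. NK cell markers summed to 15289 to 15532 CPM (counts scaled to library size) in SIS3_TGFb, 13947 to 15331 in TGFb and 18516 to 19629 in Ctrl (11 of 12 listed markers were in the table). The largest parts of that sum were Gzmb at 5376 to 8689 CPM and Prf1 at 4511 to 6423 over the 9 libraries. Of other cell types, macrophage markers (8 of 8) summed to 893 to 1487, 781 to 1214 and 1082 to 1434 CPM in SIS3_TGFb, TGFb and Ctrl, and dendritic cell markers (8 of 8) to 512 to 898, 457 to 728 and 572 to 806 CPM. Mast cell and basophil markers (8 of 8) summed to 451 to 525 CPM in SIS3_TGFb, 479 to 529 in TGFb and 489 to 517 in Ctrl, with Kit at 167 to 273 and Mcpt8 at 169 to 257 over the 9 libraries. Neutrophil markers (8 of 8) summed to 220.1 to 233, 234 to 248 and 258 to 298 CPM in SIS3_TGFb, TGFb and Ctrl, and erythroid and megakaryocyte markers (6 of 6) to 29.0 to 32.3, 7.19 to 37.9 and 36.0 to 46.3 CPM. Nearly all of the neutrophil sum was Ctsg, at 215 to 291 CPM over the 9 libraries. Mpo reached 6.69 CPM at most, Ly6g 1.03 and S100a8 0.639, and the other markers of that list were lower still. T cell markers (6 of 7) summed to 1290.0 to 1371 CPM in SIS3_TGFb, 1535 to 1681 in TGFb and 1429 to 1559 in Ctrl, of which Thy1 gave 1277 to 1674 CPM over the 9 libraries and Cd3e of the T cell receptor complex 0.466 to 2.52 CPM. Replicate 3 of SIS3_TGFb and replicate 3 of TGFb stood further from their group than the other libraries did, and counts without either are given below. The part of these other cells in the results that follow was not tested, and in bulk RNA fewer cells of a type cannot be told apart from less RNA per cell.

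Most of the chaperones that changed were lower, both in TGFb against Ctrl and in SIS3_TGFb against TGFb, called the 2 steps below. The cochaperones Hsph1, Dnajb4 and Bag3 fell most in TGFb against Ctrl together with Hsf2 and Hspd1, and Dnajb1, Bag3 and Hspa8 fell most in SIS3_TGFb against TGFb. The mitochondrial HSP70 Hspa9 rose in SIS3_TGFb against TGFb, by more than any other member. In SIS3_TGFb against TGFb, which asks what SIS3 changed among cells that all got TGF-β1, 11 of the 34 tested fell, 2 rose and 21 did not pass. The called share, 38.2% of the members, lay near the background of 41.8% of all 12212 genes tested, and that background was even in direction, with 20.6% lower and 21.2% higher. In TGFb against Ctrl, which asks what TGF-β1 changed, 19 fell, 1 rose and 14 did not pass, 58.8% of the members against 34.3% of all genes (16.4% fell, 17.9% rose). In SIS3_TGFb against Ctrl, 25 fell, 2 rose and 7 did not pass, 79.4% against 53.9% of all genes (24.9% fell, 29% rose). These comparisons share libraries in pairs, so their counts are not separate evidence. A call here is an adjusted p below 0.05 in the quasi-likelihood test of edgeR, with Benjamini-Hochberg adjustment over all genes tested, and log2 changes are given with their SE.

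Most of the changes were small. The median log2 change of the members was -0.05 in SIS3_TGFb against TGFb, -0.20 in TGFb against Ctrl and -0.27 in SIS3_TGFb against Ctrl, where the medians of all genes were 0.01, -0.00 and 0.02. By size, 32, 32 and 29 of the 34 changed by a log2 of less than 0.5 in these comparisons. Libraries of the groups compared did not overlap for 18 of the 34 members in SIS3_TGFb against TGFb, 26 in TGFb against Ctrl and 28 in SIS3_TGFb against Ctrl, which is 52.9%, 76.5% and 82.4%, against 51.4%, 45% and 61.1% of all genes tested. Every called member was among these save Hsf1 in SIS3_TGFb against Ctrl. Without SIS3_TGFb replicate 3 the calls came to 13, 20 and 26 in the 3 comparisons, and without TGFb replicate 3 to 14, 18 and 27. With no scaling factors the split in SIS3_TGFb against TGFb became 5 up and 7 down, and the members' median there 0.03. The median of all genes moved up to 0.095 under that setting, and 71.1% of all calls were rises, against 50.6% with TMM factors. The members' median was below that of all genes there too. In TGFb against Ctrl, 20 fell and 1 rose with no scaling factors, and 21 fell and 0 rose with upper-quartile factors. Of the calls over all genes in that comparison, 46.6% and 41.3% were rises in this order, against 52.2% with TMM factors.

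**Figure D1:**
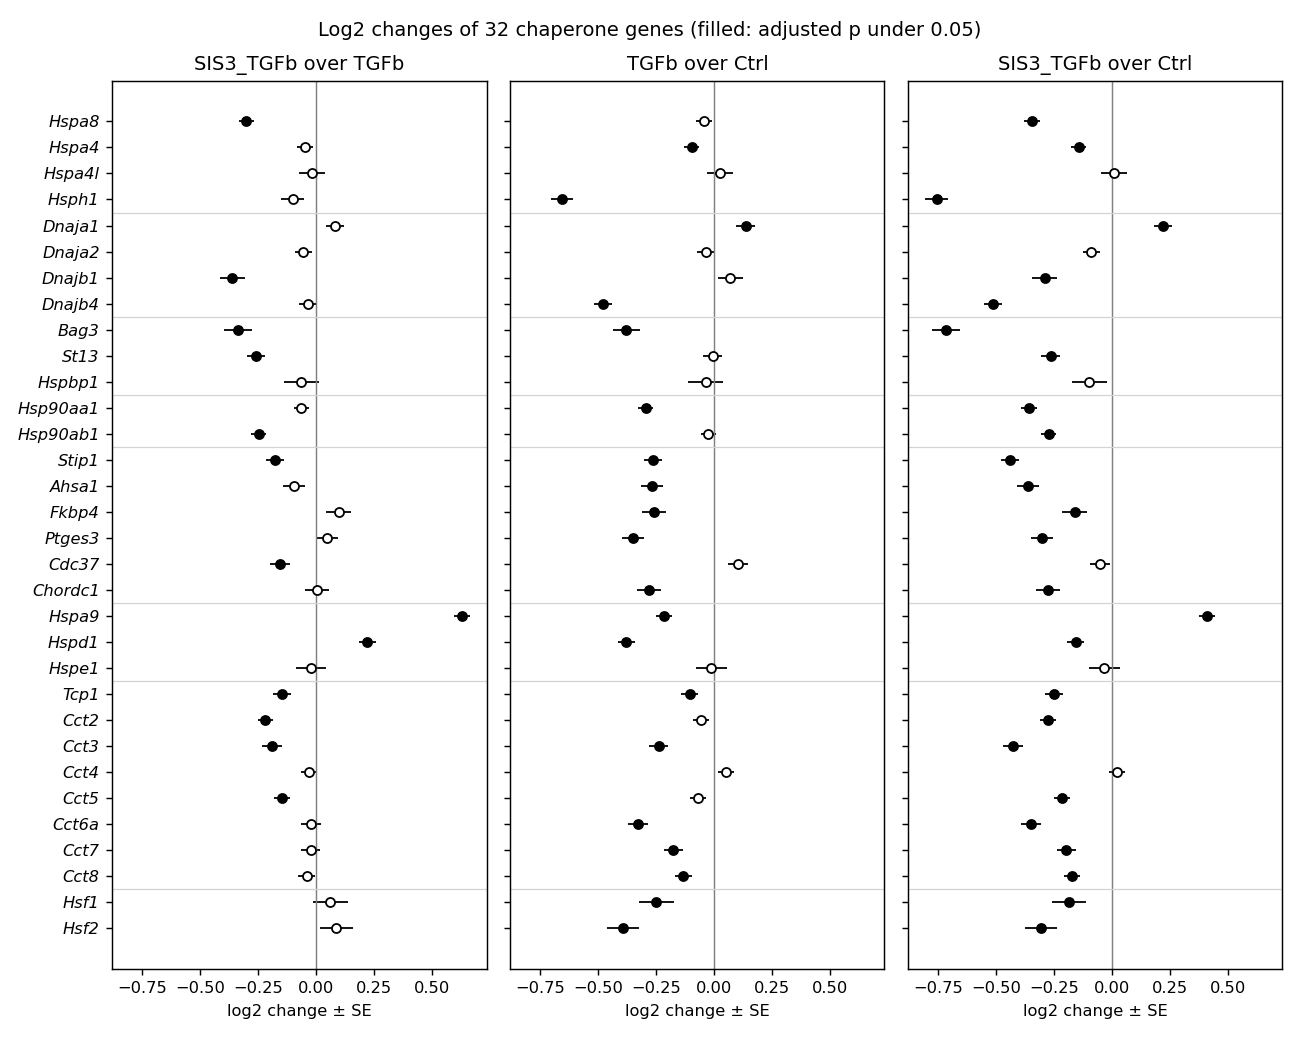
Log2 change of 32 members (points, with SE bars) by role class, in SIS3_TGFb against TGFb, TGFb against Ctrl and SIS3_TGFb against Ctrl, filled where the edgeR adjusted p is below 0.05. Of the 34 genes tested, Hspa1a and Hspa1b, with few counts, are not drawn. Hspa9 stands alone to the right in SIS3_TGFb against TGFb at 0.63, and Hsph1 lies furthest to the left in TGFb against Ctrl at -0.66.

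Together the 35 genes made up 9349, 9331 and 9326 CPM in the SIS3_TGFb libraries, 10192, 10295 and 10373 CPM in the TGFb libraries and 10901, 11049 and 10911 CPM in the Ctrl libraries, and no group overlapped another. This is 0.934% of the scaled counts in SIS3_TGFb, 1.03% in TGFb and 1.10% in Ctrl. Hspa8 and Hsp90ab1 gave 48.9% of it. The mitochondrial sum was highest in SIS3_TGFb and lowest in TGFb, at 863 ± 14.6 CPM in SIS3_TGFb, 627 ± 16.6 in TGFb and 736 ± 13.4 in Ctrl. By contrast the 8 CCT subunits summed to 2134 ± 12.8 CPM in SIS3_TGFb, 2309 ± 62.3 in TGFb and 2478 ± 40.2 in Ctrl. Within the mitochondrial sum only Hspa9 was higher in SIS3_TGFb than in Ctrl, at 603 against 453 CPM. Hspd1 had 173 against 193 CPM and Hspe1 87.0 against 89.0. The sums of the 3 HSP70 cochaperones and the 6 HSP90 cochaperones were smaller, at 206 and 541 CPM in SIS3_TGFb, 246 and 574 in TGFb and 256 and 638 in Ctrl.

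**Figure D2:**
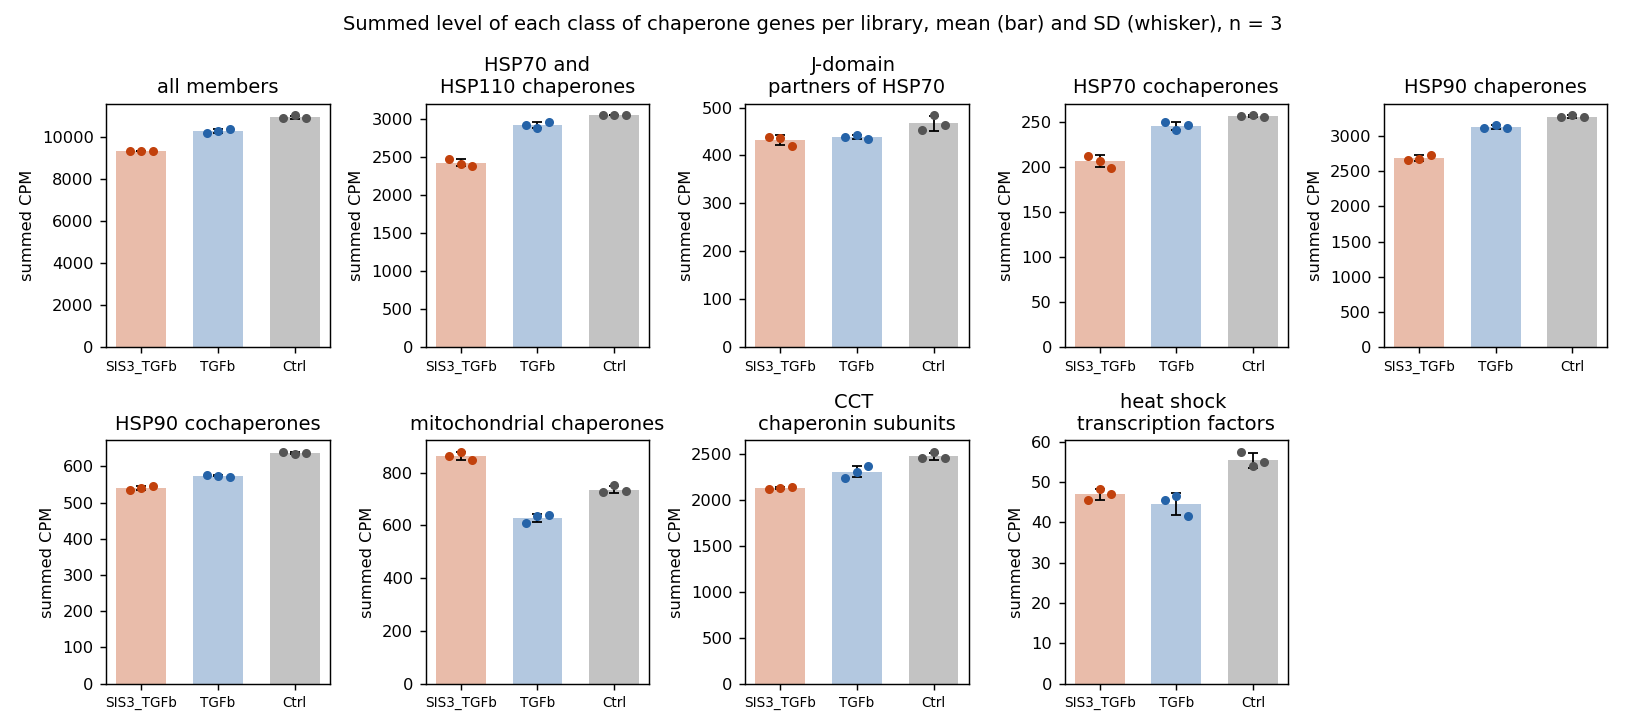
Summed CPM of all members and of each role class per library (points), with group mean (bar) and SD (whisker), 3 libraries per group, for SIS3_TGFb, TGFb and Ctrl. The mitochondrial chaperones have their lowest sums in TGFb and their highest in SIS3_TGFb, and the HSP70, HSP90 and CCT sums are lowest in SIS3_TGFb.

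Among the HSP70 and HSP110 chaperones, Hspa8 and Hsph1 changed at different steps. Hspa8 encodes the constitutive cytosolic HSP70, HSC70 (Entrez 15481, chromosome 9, 40801276 to 40805202, plus strand). Positions here and below are from RefSeq on GRCm38.p6, and strands from GENCODE M21. Hspa8 had 2138, 2065 and 2045 CPM in the SIS3_TGFb libraries, 2562, 2521 and 2609 in the TGFb libraries and 2639.5, 2653 and 2636 in the Ctrl libraries. The SIS3_TGFb libraries were the lowest with no overlap, and TGFb lay just below Ctrl. The log2 change was -0.30 ± 0.033 in SIS3_TGFb against TGFb (adjusted p = 3.6e-06), and Hspa8 did not pass in TGFb against Ctrl (-0.04 ± 0.033, adjusted p = 0.34). Hsph1 encodes HSP105, the HSP110 that exchanges the nucleotide bound to HSC70 (Entrez 15505, chromosome 5, 149616843 to 149636498, minus strand). It had 49.2, 50.8 and 51.3 CPM in the SIS3_TGFb libraries, 55.3, 55.3 and 51.4 in the TGFb libraries and 85.5, 80.8 and 89.1 in the Ctrl libraries. Here the Ctrl libraries stood alone above all others, while SIS3_TGFb lay just below TGFb, with 51.3 and 51.4 CPM as their nearest libraries. Its change was -0.66 ± 0.048 in TGFb against Ctrl (adjusted p = 2.3e-08), the largest fall of any member there, and -0.10 ± 0.050 in SIS3_TGFb against TGFb (adjusted p = 0.13), which did not pass.

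The other HSP110-type genes moved less. Hspa4, encoding APG-2, averaged 253 ± 4.34 CPM in SIS3_TGFb, 262 ± 5.46 in TGFb and 280.1 ± 4.05 in Ctrl. It passed in TGFb against Ctrl at -0.10 ± 0.033 (adjusted p = 0.036). That call ended with no filter on low counts, with only the 2 groups fitted, and without Ctrl replicate 1 or 3, TGFb replicate 1 or 3 or SIS3_TGFb replicate 1 (adjusted p = 0.051 to 0.13). In SIS3_TGFb against Ctrl it fell by 0.14 (SE 0.033) on the log2 scale (adjusted p = 0.0018). Its relative Hspa4l was at 33.0 ± 1.38, 33.5 ± 0.67 and 32.9 ± 1.42 CPM in SIS3_TGFb, TGFb and Ctrl, and passed in no comparison.

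The stress-inducible HSP70 genes Hspa1a and Hspa1b were almost silent, with 3 to 18 counts per library for Hspa1a and 4 to 20 for Hspa1b. Hspa1a had 0.295, 0.174 and 0.348 CPM in the SIS3_TGFb libraries, 0.554, 1.10 and 0.333 in the TGFb libraries and 0.505, 0.924 and 0.913 in the Ctrl libraries. It passed only in SIS3_TGFb against Ctrl (-1.50 ± 0.50, adjusted p = 0.02), a call that ended without Ctrl replicate 2 (adjusted p = 0.069), Ctrl replicate 3 (0.067) or SIS3_TGFb replicate 2 (0.077). In SIS3_TGFb against TGFb it did not pass at -1.27 ± 0.52 (adjusted p = 0.061), and did without TGFb replicate 3 (0.019). Hspa1b had 0.945, 0.814 and 0.464 CPM in the SIS3_TGFb libraries, 0.923, 0.854 and 0.266 in the TGFb libraries and 1.07, 1.23 and 0.852 in the Ctrl libraries and passed in none. The genes are near copies: 48.6% and 49.9% of the 100-base windows of their GENCODE M21 transcripts occur in another gene, and their RefSeq promoters match at 296 of 300 bases, so the split of reads between them is uncertain. Counted as 1 gene they averaged 1.01 ± 0.215 CPM in SIS3_TGFb, 1.34 ± 0.687 in TGFb and 1.83 ± 0.296 in Ctrl. The sum passed in SIS3_TGFb against Ctrl (log2 -0.85 ± 0.34, adjusted p = 0.044) and not in the other comparisons (adjusted p = 0.37 for SIS3_TGFb against TGFb and 0.34 for TGFb against Ctrl). Hspb1, the small heat shock protein HSP25, had 0 to 5 counts in each library and was not tested.

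**Figure D3:**
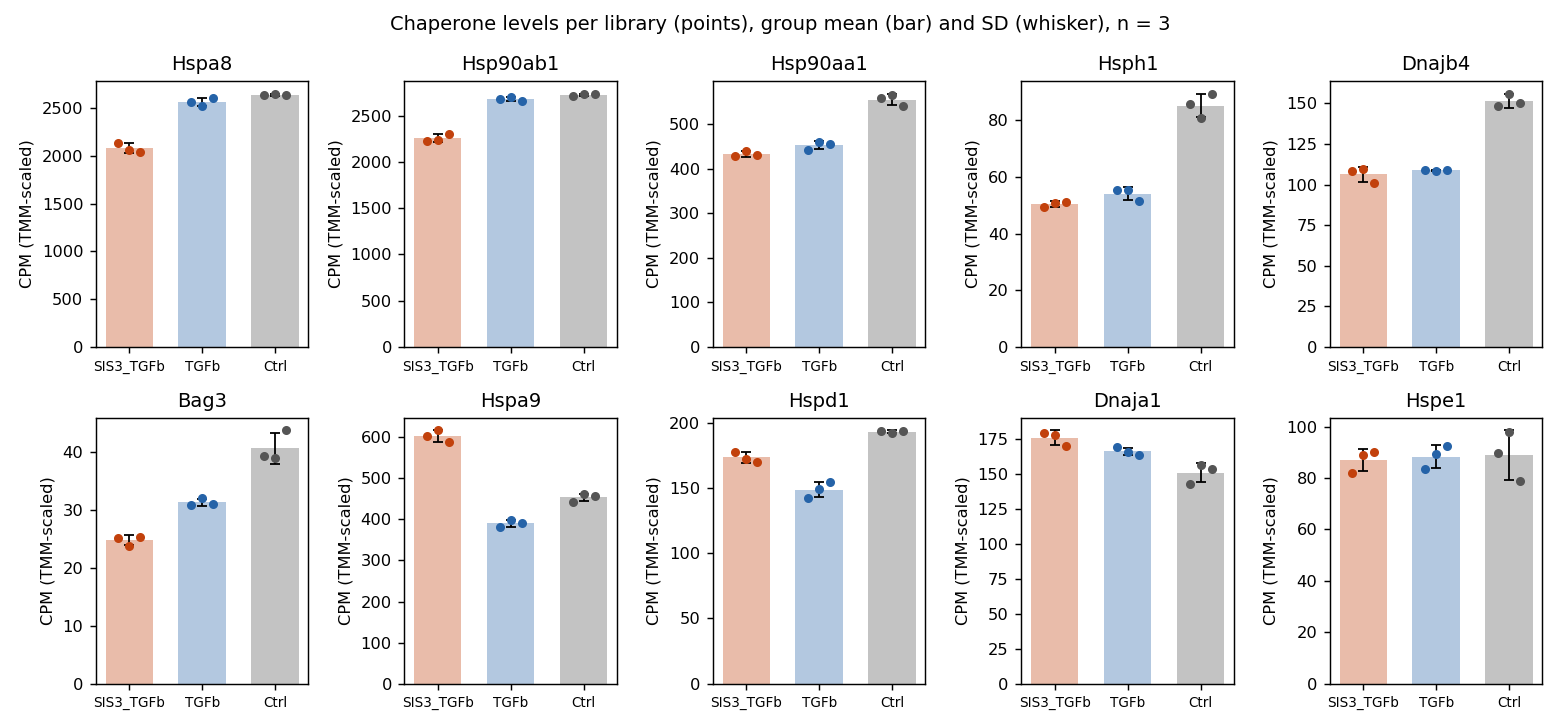
CPM of 10 members per library (points) with group mean (bar) and SD (whisker), 3 libraries per group, for SIS3_TGFb, TGFb and Ctrl, each panel on its own axis from 0. Hsph1, Dnajb4 and Hsp90aa1 stand highest in Ctrl, Hspa8 and Hsp90ab1 lowest in SIS3_TGFb, and Hspa9 highest in SIS3_TGFb.

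The 4 J-domain partners did not move as 1 group. Dnajb1 encodes HSP40, the main inducible partner of HSP70 (Entrez 81489, chromosome 8, 83608175 to 83612653, plus strand). It had 34.0, 32.7 and 33.7 CPM in the SIS3_TGFb libraries, 42.7, 43.1 and 43.0 in the TGFb libraries and 38.6, 43.4 and 40.6 in the Ctrl libraries, so that SIS3_TGFb lay below both other groups. The change was -0.36 ± 0.054 in SIS3_TGFb against TGFb (adjusted p = 7.2e-05) and 0.07 ± 0.053 in TGFb against Ctrl (adjusted p = 0.33, not passed). Dnajb4, a close relative of Dnajb1, showed its difference at the other step. It had 108, 109 and 101 CPM in the SIS3_TGFb libraries, 109, 108 and 109 in the TGFb libraries and 148, 156 and 150.1 in the Ctrl libraries, with Ctrl above all other libraries. In TGFb against Ctrl it changed by -0.48 ± 0.039 (adjusted p = 7.9e-08) and in SIS3_TGFb against TGFb by -0.03 ± 0.040 (adjusted p = 0.52, not passed).

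Dnaja1, a J-domain protein of the cytosol that helps HSC70 with new and imported chains, was the only member that rose in TGFb against Ctrl. It had 179.5, 178 and 169.7 CPM in the SIS3_TGFb libraries, 169, 166 and 163 in the TGFb libraries and 143, 156 and 154 in the Ctrl libraries. The log2 change was 0.14 ± 0.040 (adjusted p = 0.015), and the call ended with upper-quartile factors (0.084) and without Ctrl replicate 1 (0.079) or TGFb replicate 1 (0.055). In SIS3_TGFb against Ctrl it rose by 0.22 ± 0.040 (adjusted p = 0.00024). Dnaja2, its relative, averaged 117 ± 0.815, 121 ± 3.66 and 124 ± 4.15 CPM in SIS3_TGFb, TGFb and Ctrl and passed in no comparison. In SIS3_TGFb against Ctrl its adjusted p of 0.058 went below 0.05 with upper-quartile factors (0.012), with only the 2 groups fitted (0.03) and without Ctrl replicate 3 (0.044).

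Of the other HSP70 cochaperones, Bag3 was lower at each step. BAG3 releases clients from HSP70 and steers them to autophagy (Entrez 29810, chromosome 7, 128523583 to 128546981, plus strand). It had 25.3, 23.8 and 25.4 CPM in the SIS3_TGFb libraries, 30.9, 32.1 and 31.1 in the TGFb libraries and 39.4, 39.0 and 43.8 in the Ctrl libraries. The 3 groups did not overlap, in the order SIS3_TGFb, TGFb, Ctrl with Ctrl highest. The log2 change was -0.34 ± 0.062 in SIS3_TGFb against TGFb (adjusted p = 0.00048) and -0.38 ± 0.059 in TGFb against Ctrl (adjusted p = 0.00011). St13 encodes HIP, which slows the release of clients from HSP70. It had 171, 167 and 156 CPM in the SIS3_TGFb libraries, 202, 192 and 197 in the TGFb libraries and 199.5, 199 and 194 in the Ctrl libraries, and SIS3_TGFb alone stood below the rest. It fell by 0.26 (SE 0.039) on the log2 scale in SIS3_TGFb against TGFb (adjusted p = 8.7e-05), and its difference in TGFb against Ctrl was -0.01 ± 0.039 (adjusted p = 0.92). Hspbp1, an exchange factor of HSP70, was at 16.6 ± 0.857, 17.4 ± 0.63 and 17.8 ± 1.16 CPM in SIS3_TGFb, TGFb and Ctrl and passed in none.

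The 2 cytosolic HSP90 genes each passed at 1 of the 2 steps, Hsp90ab1 in SIS3_TGFb against TGFb and Hsp90aa1 in TGFb against Ctrl. Hsp90ab1 encodes HSP90β, the constitutive form (Entrez 15516, chromosome 17, 45567778 to 45573261, minus strand). It had 2228, 2239 and 2306 CPM in the SIS3_TGFb libraries, 2677, 2704 and 2659 in the TGFb libraries and 2711, 2733 and 2731 in the Ctrl libraries. SIS3_TGFb lay below both other groups, at -0.25 ± 0.032 against TGFb (adjusted p = 1.8e-05), and TGFb against Ctrl was -0.02 ± 0.032 (adjusted p = 0.61). Hsp90aa1 encodes HSP90α, the inducible form (Entrez 15519, chromosome 12, 110691036 to 110696395, minus strand). It had 429, 441 and 431 CPM in the SIS3_TGFb libraries, 442, 460.1 and 455 in the TGFb libraries and 559, 566 and 541 in the Ctrl libraries. Here Ctrl stood above both other groups, at -0.29 ± 0.034 in TGFb against Ctrl (adjusted p = 3.8e-06), while SIS3_TGFb against TGFb did not pass at -0.06 ± 0.034 (adjusted p = 0.15).

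The ratio of Hsp90aa1 to Hsp90ab1, which no library scaling can move, sets them against each other directly. It was 0.192, 0.197 and 0.187 in the SIS3_TGFb libraries, 0.165, 0.170 and 0.171 in the TGFb libraries and 0.206, 0.207 and 0.198 in the Ctrl libraries. All TGFb libraries were below all others, and SIS3_TGFb below Ctrl. An exact permutation test of the F statistic over the 3 groups gave p = 0.00357, the smallest its 1680 arrangements can give, and 0.00536 adjusted over the 3 ratios tested. Of the Hsp90aa1 transcript, 47.5% of 100-base windows occur in another gene, mostly the pseudogene Gm12346, so that reads could have been divided. The same holds for 62.8% of the windows of Hspa8.

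**Figure D4:**
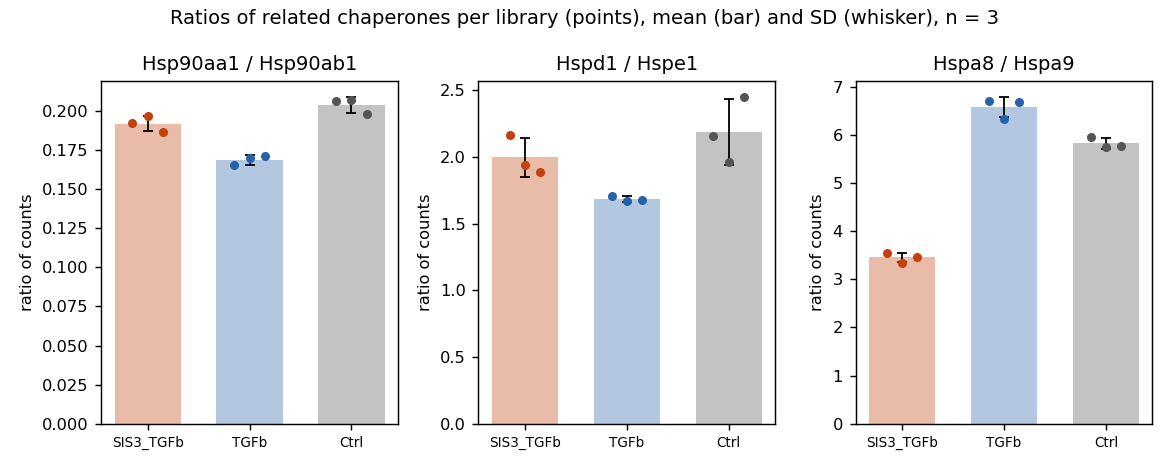
Ratio of counts of Hsp90aa1 to Hsp90ab1, Hspd1 to Hspe1 and Hspa8 to Hspa9 per library (points), with mean (bar) and SD (whisker), 3 libraries per group, for SIS3_TGFb, TGFb and Ctrl. The TGFb libraries are lowest in the first panel and highest in the third, where SIS3_TGFb lies between 3.35 and 3.55.

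Of the 6 HSP90 cochaperones, 5 fell in TGFb against Ctrl, and 2 fell in SIS3_TGFb against TGFb. That is 83.3% and 33.3% called, against 34.3% and 41.8% of all genes tested, above the background in the first and below it in the second. Ptges3 (p23, which holds HSP90 closed on its client) averaged 92.3 ± 3.97 CPM in SIS3_TGFb, 89.3 ± 4.22 in TGFb and 114 ± 4.97 in Ctrl. It had the largest fall of the class in TGFb against Ctrl, -0.35 ± 0.047 (adjusted p = 2.4e-05). Stip1, the adaptor HOP that links HSP70 to HSP90, was the only one that fell at each step. It had 85.2, 90.8 and 89.6 CPM in the SIS3_TGFb libraries, 103, 98.0 and 98.9 in the TGFb libraries and 119, 122 and 119.8 in the Ctrl libraries, with no overlap between groups. The log2 change was -0.18 ± 0.039 in SIS3_TGFb against TGFb (adjusted p = 0.002, 0.084 with no scaling factors) and -0.26 ± 0.039 in TGFb against Ctrl (adjusted p = 5.5e-05). Chordc1, which binds HSP90 and carries a match to the heat shock element at its start, had 46.8, 49.6 and 47.6 CPM in the SIS3_TGFb libraries, 48.9, 49.7 and 44.9 in the TGFb libraries and 59.0, 55.8 and 59.5 in the Ctrl libraries. Its Ctrl libraries lay above the rest, and the change in TGFb against Ctrl was -0.28 ± 0.051 (adjusted p = 0.00048).

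Ahsa1, the activator AHA1 of the HSP90 ATPase, averaged 74.0 ± 3.66 CPM in SIS3_TGFb, 79.0 ± 1.38 in TGFb and 95.0 ± 4.50 in Ctrl, and fell by 0.27 (SE 0.046) in TGFb against Ctrl on the log2 scale (adjusted p = 0.00029). Fkbp4, the immunophilin FKBP52 of steroid receptor complexes, averaged 44.5 ± 0.737, 41.6 ± 2.15 and 49.8 ± 2.25 CPM in SIS3_TGFb, TGFb and Ctrl. Its change was -0.26 ± 0.053 in TGFb against Ctrl (adjusted p = 0.0013) and -0.16 ± 0.053 in SIS3_TGFb against Ctrl (adjusted p = 0.017). The second call ended with no scaling factors (0.12), without Ctrl replicate 1 (0.081) and without SIS3_TGFb replicate 2 (0.056). Cdc37, which brings kinases to HSP90, was the exception in the class. It averaged 194 ± 8.42 CPM in SIS3_TGFb, 216 ± 3.56 in TGFb and 201 ± 10.7 in Ctrl, did not pass in TGFb against Ctrl (0.11 ± 0.043, adjusted p = 0.074) and fell in SIS3_TGFb against TGFb (-0.16 ± 0.043, adjusted p = 0.0093). That fall lost its call with no scaling factors (0.22) and without SIS3_TGFb replicate 1 (0.051).

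The mitochondrial chaperones were the class with rises in SIS3_TGFb against TGFb: 2 of 3 rose there and 2 of 3 fell in TGFb against Ctrl. That is 66.7% of the class in each, against 41.8% and 34.3% of all genes tested that were called either way. With no scaling factors the same 2 genes were called higher in SIS3_TGFb against TGFb, and outside the class Dnaja1 (adjusted p = 0.005), Fkbp4 (0.012) and Ptges3 (0.046) were too. Under that setting 71.1% of the calls over all genes were rises, and the median log2 change of all genes was 0.095. Hspa9 encodes mortalin, the mitochondrial HSP70 that pulls imported chains through the inner membrane (Entrez 15526). It had 603, 617 and 589 CPM in the SIS3_TGFb libraries, 382, 398 and 390.3 in the TGFb libraries and 443, 461 and 456 in the Ctrl libraries. The 3 groups did not overlap, with SIS3_TGFb highest and TGFb lowest. Its rise in SIS3_TGFb against TGFb, 0.63 ± 0.034 or 1.54-fold (adjusted p = 1.5e-09), was the largest among the members. In TGFb against Ctrl it fell by 0.22 (SE 0.034) on the log2 scale (adjusted p = 0.00012), and it was above Ctrl in SIS3_TGFb by 0.41 ± 0.034 (adjusted p = 5.6e-08).

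Hspd1 encodes HSP60, the barrel in which imported proteins fold (Entrez 15510, chromosome 1, 55077833 to 55088243, minus strand). It had 178, 173 and 170.0 CPM in the SIS3_TGFb libraries, 143, 149 and 155 in the TGFb libraries and 194, 192 and 193 in the Ctrl libraries. TGFb was lowest and Ctrl highest, with SIS3_TGFb between them and no overlap. It rose by 0.22 ± 0.037 in SIS3_TGFb against TGFb (adjusted p = 0.00021), changed by -0.38 ± 0.037 in TGFb against Ctrl (adjusted p = 7e-07) and by -0.16 ± 0.037 in SIS3_TGFb against Ctrl (adjusted p = 0.002). Hspe1, encoding HSP10, the lid of that barrel, shares the printed stretch with Hspd1. It had 82.2, 88.9 and 90.1 CPM in the SIS3_TGFb libraries, 83.5, 89.2 and 92.3 in the TGFb libraries and 89.9, 98.1 and 79.0 in the Ctrl libraries, so that all groups overlapped. None of its comparisons passed (adjusted p = 0.83 for SIS3_TGFb against TGFb and 0.92 for TGFb against Ctrl). Its change in TGFb against Ctrl was -0.01 ± 0.066.

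The ratio of Hspd1 to Hspe1 was 2.16, 1.94 and 1.89 in the SIS3_TGFb libraries, 1.71, 1.67 and 1.67 in the TGFb libraries and 2.16, 1.96 and 2.45 in the Ctrl libraries. TGFb lay below all other libraries, and SIS3_TGFb and Ctrl overlapped. The exact permutation test gave p = 0.025 and the same value adjusted over the 3 ratios. Left out singly, 5 of the 9 libraries ended this call in the exact permutation test: SIS3_TGFb replicate 2 (p = 0.05), each TGFb replicate (p = 0.0643) and Ctrl replicate 1 (p = 0.0536). The cytosolic to mitochondrial HSP70 ratio, Hspa8 to Hspa9, was 3.55, 3.35 and 3.47 in the SIS3_TGFb libraries, 6.71, 6.33 and 6.69 in the TGFb libraries and 5.96, 5.76 and 5.78 in the Ctrl libraries. The 3 groups stood apart, with p = 0.00357 by the exact permutation test, again the smallest possible, and 0.00536 adjusted. All 3 ratios were chosen with earlier results of these data known, so their p-values are not separate evidence from the changes of the genes themselves.

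Of the CCT subunits, Tcp1 and Cct3 fell at both steps, and Cct4 alone passed in no comparison. In TGFb against Ctrl 5 of 8 fell, in SIS3_TGFb against TGFb 4 of 8, and in SIS3_TGFb against Ctrl 7 of 8, with 0 rises. In this order 62.5%, 50% and 87.5% were called, against 34.3%, 41.8% and 53.9% of all genes tested. The share in SIS3_TGFb against TGFb was thus near the background. With no scaling factors 2 of 8 fell in SIS3_TGFb against TGFb, where Tcp1 (adjusted p = 0.25) and Cct5 (0.11) lost their calls, and Cct4 was called higher in SIS3_TGFb against Ctrl (0.024). Under that setting the median log2 change of all genes was 0.095 and 0.080 in these comparisons, against 0.012 and 0.020 with TMM factors. Cct3 had 161, 163 and 159.8 CPM in the SIS3_TGFb libraries, 174, 186 and 191 in the TGFb libraries and 212, 228 and 210.2 in the Ctrl libraries. Its groups did not overlap, and it fell at each step, by 0.19 (SE 0.042) in SIS3_TGFb against TGFb (adjusted p = 0.0021) and 0.24 (SE 0.042) in TGFb against Ctrl (adjusted p = 0.00032) on the log2 scale. Cct6a had 155, 166 and 159 CPM in the SIS3_TGFb libraries, 155, 166 and 166 in the TGFb libraries and 204, 213 and 195 in the Ctrl libraries, with Ctrl alone above the rest, at -0.33 ± 0.043 in TGFb against Ctrl (adjusted p = 1.7e-05) and -0.02 ± 0.044 in SIS3_TGFb against TGFb (adjusted p = 0.73). Cct2 had 447, 456 and 459.9 CPM in the SIS3_TGFb libraries, 512, 528 and 544 in the TGFb libraries and 546, 557 and 545 in the Ctrl libraries. SIS3_TGFb was below the rest, at -0.22 ± 0.034 against TGFb (adjusted p = 0.0001), and TGFb against Ctrl did not pass (-0.06 ± 0.034, adjusted p = 0.22) except with upper-quartile factors (0.044).

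Cct4 averaged 378 ± 3.42 CPM in SIS3_TGFb, 385 ± 13.0 in TGFb and 372 ± 2.32 in Ctrl and passed in none of the comparisons (adjusted p = 0.54, 0.27 and 0.6). Cct7 changed by -0.18 ± 0.041 in TGFb against Ctrl (adjusted p = 0.0031) and by -0.02 ± 0.041 in SIS3_TGFb against TGFb (adjusted p = 0.7, not passed). Cct8 changed by -0.13 ± 0.036 in TGFb against Ctrl (adjusted p = 0.0092) and by -0.04 ± 0.036 in SIS3_TGFb against TGFb (adjusted p = 0.41, not passed). The Cct8 call ended without TGFb replicate 1 (0.053). Tcp1, the first CCT subunit, changed by -0.15 ± 0.038 in SIS3_TGFb against TGFb (adjusted p = 0.0063) and by -0.11 ± 0.038 in TGFb against Ctrl (adjusted p = 0.043). Its second call ended with only the 2 groups fitted (0.072), without Ctrl replicate 2 or 3, without any 1 TGFb replicate and without SIS3_TGFb replicate 1 or 2 (0.054 to 0.16). Cct5 fell in SIS3_TGFb against TGFb (-0.15 ± 0.034, adjusted p = 0.0027), and in TGFb against Ctrl it did not pass (-0.07 ± 0.034, adjusted p = 0.14) except without TGFb replicate 3 (0.048) and under the upper-quartile and unscaled settings.

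**Figure D5:**
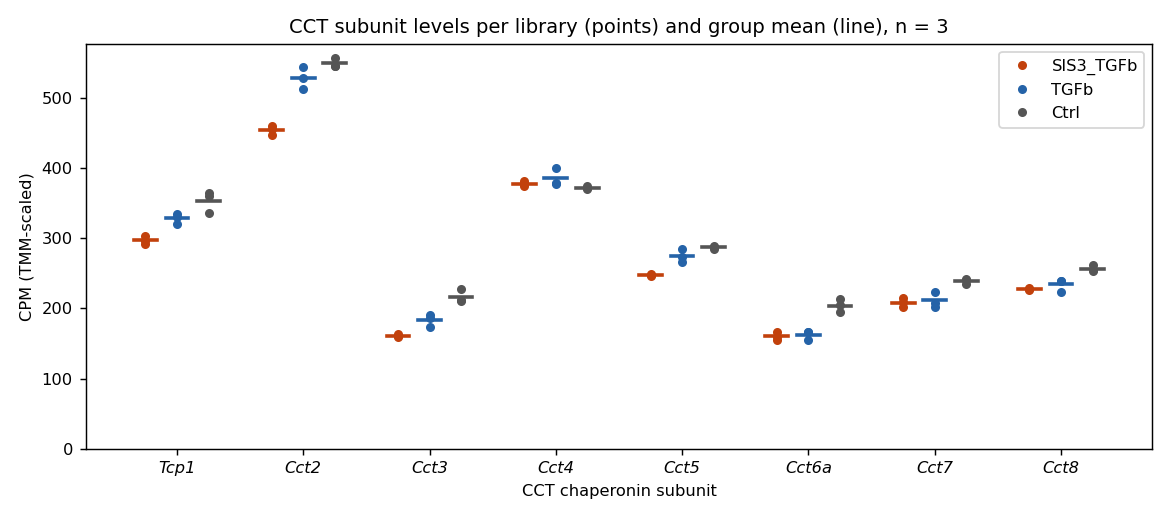
CPM of the 8 CCT subunits per library (points) with the group mean (line), 3 libraries per group, for SIS3_TGFb, TGFb and Ctrl. Cct2 is the most abundant at 454 CPM in SIS3_TGFb, 528 in TGFb and 549 in Ctrl, and Cct4 is the subunit whose Ctrl mean is not the highest.

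Both heat shock transcription factors were lower with TGF-β1. Hsf2, a partner of HSF1 in stress and development, had 20.7, 20.3 and 21.7 CPM in the SIS3_TGFb libraries, 20.4, 20.4 and 18.2 in the TGFb libraries and 25.0, 25.0 and 27.6 in the Ctrl libraries. Its Ctrl libraries lay above the rest, at -0.39 ± 0.070 in TGFb against Ctrl (adjusted p = 0.00037) and 0.09 ± 0.072 in SIS3_TGFb against TGFb (adjusted p = 0.36, not passed). Hsf1, the main stress factor, had 24.7, 27.9 and 25.4 CPM in the SIS3_TGFb libraries, 25.2, 26.1 and 23.3 in the TGFb libraries and 32.5, 28.9 and 27.4 in the Ctrl libraries. It passed in TGFb against Ctrl at -0.25 ± 0.075 (adjusted p = 0.018), and not without Ctrl replicate 1 (0.098) or TGFb replicate 3 (0.06). In SIS3_TGFb against Ctrl, where its libraries overlap, its adjusted p was 0.046, which rose to between 0.055 and 0.22 without Ctrl replicate 1 or 2, TGFb replicate 1, or SIS3_TGFb replicate 1 or 3, to 0.18 with no scaling factors and to 0.069 with DESeq2.

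Levels of different genes were compared per kilobase of the main GENCODE M21 transcript, for the 34 members that have one (Cct6a has none). In Ctrl, Hspa8 (1104 ± 3.91 CPM per kb) and Hsp90ab1 (1081 ± 4.88) stood far above Cct2 (280.5 ± 3.27), Hsp90aa1 (169 ± 3.99), Cct5 (155 ± 1.22), Cct4 (149.7 ± 0.934) and Hspa9 (149 ± 3.06). Cct4 and Hspa9 differed by less than the spread of Hspa9 over its libraries. At the low end were Hspa1b (0.375), Hspa1a (0.263) and Hspb1 (0.182). Sequence shared with other genes touched 11 of the 34, and 10 of them in over 10% of their 100-base windows: Hspa8, Hspa1a, Hspa1b, Dnaja1, Hsp90aa1, Ahsa1, Ptges3, Hspb1, Hspd1 and Hspe1. Their levels are therefore less certain than those of the others.

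Genes of the same pathways outside the 35 moved in both directions. Of 11 other mitochondrial chaperones and proteases tested, 5 rose and 3 fell in SIS3_TGFb against TGFb, and 0 rose and 3 fell in TGFb against Ctrl. The called shares were 72.7% and 27.3%, against 41.8% and 34.3% of all genes tested, so the first lay above the background and the second below it, with median log2 changes of 0.06 and -0.05. Lonp1, the main protease of the mitochondrial matrix, averaged 346 ± 6.73 CPM in SIS3_TGFb, 252 ± 11.2 in TGFb and 261 ± 12.8 in Ctrl, a log2 change of 0.46 ± 0.042 in SIS3_TGFb against TGFb (adjusted p = 6.3e-07). The disaggregase Clpb changed by 0.46 ± 0.071 (adjusted p = 9e-05) there. Afg3l2, a protease of the inner membrane, fell at both steps, at 97.7 ± 0.415, 109.7 ± 9.81 and 155 ± 2.19 CPM in SIS3_TGFb, TGFb and Ctrl, with -0.17 ± 0.051 in SIS3_TGFb against TGFb (adjusted p = 0.015) and -0.50 ± 0.049 in TGFb against Ctrl (adjusted p = 7.3e-07). The J-domain partner of mortalin, Dnaja3, belongs to the list of 20 other J-domain proteins, of which 4 rose and 3 fell in SIS3_TGFb against TGFb and 2 rose and 5 fell in TGFb against Ctrl. 35% and 35% of that list were called at the 2 steps in this order, near the 41.8% and 34.3% of all genes, with median log2 changes of 0.03 and -0.01. Dnaja3 had 72.4, 74.3 and 70.3 CPM in the SIS3_TGFb libraries, 43.0, 41.6 and 41.9 in the TGFb libraries and 54.4, 49.9 and 48.7 in the Ctrl libraries. The order of its groups was that of Hspa9, with a log2 change of 0.78 ± 0.050 in SIS3_TGFb against TGFb (adjusted p = 1e-08) and -0.27 ± 0.052 in TGFb against Ctrl (adjusted p = 0.00059).

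The 16 chaperones of the endoplasmic reticulum gave 4 rises and 3 falls in SIS3_TGFb against TGFb, and 0 rises and 10 falls in TGFb against Ctrl. That is 43.8% and 62.5% called, against 41.8% and 34.3% of all genes tested, near the background in the first and above it in the second, with median log2 changes of 0.03 and -0.14. Their HSP70, Hspa5 (BiP), averaged 889 ± 23.3 CPM in SIS3_TGFb, 666 ± 25.0 in TGFb and 758 ± 18.9 in Ctrl, with 0.42 ± 0.038 in SIS3_TGFb against TGFb (adjusted p = 4.3e-07) and -0.19 ± 0.038 in TGFb against Ctrl (adjusted p = 0.001). Their HSP90, Hsp90b1 (GRP94), changed by -0.23 ± 0.037 in TGFb against Ctrl (adjusted p = 0.00014) and by 0.01 ± 0.037 in SIS3_TGFb against TGFb (adjusted p = 0.85, not passed). Calr, the lectin chaperone calreticulin, fell in SIS3_TGFb against TGFb (-0.27 ± 0.036, adjusted p = 2.5e-05) and in TGFb against Ctrl (-0.15 ± 0.036, adjusted p = 0.0038). Dnajb9, a J-domain partner of BiP, rose in SIS3_TGFb against TGFb by 0.79 ± 0.076 (adjusted p = 8.6e-07).

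Of 17 other HSP90 cochaperones, 2 rose and 6 fell in SIS3_TGFb against TGFb, and 6 rose and 4 fell in TGFb against Ctrl. In the same order 47.1% and 58.8% were called, against 41.8% and 34.3% of all genes, again near the background in the first and above it in the second, and the median log2 changes were -0.04 and 0.09. Ppid, the immunophilin cyclophilin 40, changed by -0.34 ± 0.064 in SIS3_TGFb against TGFb (adjusted p = 0.0005) and -0.51 ± 0.060 in TGFb against Ctrl (adjusted p = 4.8e-06). The phosphatase Ppp5c rose in SIS3_TGFb against TGFb (0.22 ± 0.051, adjusted p = 0.0026) and in TGFb against Ctrl (0.24 ± 0.052, adjusted p = 0.002). The 13 other HSP70 family genes and exchange factors had 2 rises and 2 falls in SIS3_TGFb against TGFb and 2 rises and 1 fall in TGFb against Ctrl. Both shares, 30.8% and 23.1%, were below those of all genes, and the median log2 changes were -0.00 and -0.00. Bag6, which holds stray membrane proteins in the cytosol, was among the falls at -0.23 ± 0.035 in SIS3_TGFb against TGFb (adjusted p = 0.00011). Prefoldin and phosducin-like partners of CCT had 2 rises and 3 falls of 14 in SIS3_TGFb against TGFb. In TGFb against Ctrl they had 3 rises and 1 fall. Their shares called, 35.7% and 28.6%, were also below those of all genes, with median log2 changes of 0.01 and 0.02. The prefoldin subunit Pfdn5 changed by -0.27 ± 0.046 in SIS3_TGFb against TGFb (adjusted p = 0.00027) and by 0.15 ± 0.046 in TGFb against Ctrl (adjusted p = 0.018). The list of 9 other small heat shock proteins and HSF1 partners had 1 rise and 1 fall in SIS3_TGFb against TGFb and 0 rises and 2 falls in TGFb against Ctrl. Its shares called were 22.2% and 22.2%, below those of all genes in both, and its median log2 changes 0.00 and 0.01. The small heat shock protein Hspb6 was the rise, at 5.92 ± 0.44 CPM in SIS3_TGFb, 3.07 ± 0.119 in TGFb and 2.78 ± 0.17 in Ctrl (log2 0.95 ± 0.14, adjusted p = 8.9e-05).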

How the data were processed

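Poly-A RNA of 9 NK cell samples was read as 100 bp pairs, per the labels' protocols. The authors deposited 1 table of expected counts per gene, raw and not scaled for depth. The unit was read from the values, since 10.2% to 11.1% of them per library are not whole. Per the submitters' processing notes, HISAT2, StringTie, Cufflinks, Bowtie2, RSEM and DESeq2 were used with the builds GRCm38 and mm10. Their roles, the gene annotation and the strandedness are not stated in any source read. Nothing in the labels says that replicates are separate mice or cultures, so a p-value reflects only how far these libraries differ, which may be technical.

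Values were rounded to whole numbers, and genes kept by filterByExpr (minimum count 10, minimum total 15), which left 12212. With TMM factors, edgeR 4.0.16 (R 4.3.3) fitted all 9 libraries together through glmQLFit and tested each contrast through glmQLFTest. Tests were two-sided, with Benjamini-Hochberg adjustment over all genes tested and a threshold of 0.05. Each SE was obtained as the absolute log2 change over the root of its F statistic. The code was tested on simulated data. Levels are CPM with TMM scaling, as mean ± SD over 3 libraries. Ratios of counts were compared by an exact permutation test over the 9 libraries. The alternatives were upper-quartile factors, no scaling factors, DESeq2 1.42.0, no filter, only the groups compared, a replicate block, the summed Hspa1 pair, 10 counts added before the ratios, and leaving out each library. Gene positions and promoter sequences come from RefSeq, and strands and transcripts from GENCODE M21, all on GRCm38.p6.

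The members, the pathway lists and the tests were chosen with earlier results of these data known. All 35 members are named, and of each pathway list up to 2 rises and 2 falls with the smallest p in SIS3_TGFb against TGFb and in TGFb against Ctrl were eligible to be named.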

Additional observations from a re-analysis of the deposited data

How the results depend on the processing

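Of the 102 log2 changes of tested members (34 genes in 3 comparisons), those that passed kept their sign under each alternative run. Counts of called members stayed between 12 and 14 in SIS3_TGFb against TGFb, 16 and 21 in TGFb against Ctrl and 25 and 28 in SIS3_TGFb against Ctrl. The signs that turned belong to changes that did not pass. They moved with no scaling factors, in SIS3_TGFb against TGFb to 0.035 for Hspa4, 0.065 for Hspa4l, 0.029 for Dnaja2, 0.048 for Dnajb4, 0.021 for Hspbp1, 0.021 for Hsp90aa1, 0.063 for Hspe1, 0.055 for Cct4, 0.062 for Cct6a, 0.062 for Cct7 and 0.044 for Cct8 and in SIS3_TGFb against Ctrl to 0.011 for Cdc37 and 0.029 for Hspe1. Fewer moved with upper-quartile factors, in TGFb against Ctrl to -0.015 for Hspa4l and in SIS3_TGFb against Ctrl to -0.028 for Hspa4l and -0.013 for Cct4; with DESeq2, in SIS3_TGFb against TGFb to -0.0089 for Chordc1 and in SIS3_TGFb against Ctrl to -0.011 for Hspa4l; and with only the 2 groups fitted, in SIS3_TGFb against Ctrl to -0.0082 for Hspa4l. With 1 library left out, the values of changes that turned sign ran, in SIS3_TGFb against TGFb, from -0.26 to 0.37 for Hspa1b, -0.054 to 0.0038 for Hspa4l, -0.059 to 0.00013 for Dnajb4, -0.0404 to 0.029 for Chordc1, -0.061 to 0.019 for Hspe1, -0.054 to 0.0033 for Cct6a and -0.053 to 0.019 for Cct7, in TGFb against Ctrl, from -0.80 to 0.076 for Hspa1a, -0.026 to 0.013 for St13, -0.065 to 0.0202 for Hspbp1 and -0.091 to 0.064 for Hspe1, and in SIS3_TGFb against Ctrl, from -0.028 to 0.043 for Hspa4l and -0.11 to 0.043 for Hspe1. With no scaling factors 71.1% of the calls over all genes in SIS3_TGFb against TGFb were rises, against 50.6% with TMM factors, and in SIS3_TGFb against Ctrl 63.8% against 53.8%. With upper-quartile factors that share in TGFb against Ctrl was 41.3% against 52.2%. The cause of these shifts was not tested. The p of the ratio of Hspd1 to Hspe1 lay between 0.00714 and 0.0643 with 1 library left out.

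Replicate numbers did not pair the libraries: same-numbered libraries of different groups correlated at -0.147 to 0.126 in their deviations from the group means, and differently numbered ones at -0.163 to 0.145. Not every library correlated best with its own number. With the replicate number as a block, 13, 18 and 27 members were called in SIS3_TGFb against TGFb, TGFb against Ctrl and SIS3_TGFb against Ctrl, and the calls over all genes came to 4803, 3942 and 6346, against 5104, 4190 and 6585 without it. Among the members the block ended the calls of Hspa4 (adjusted p = 0.061) and Tcp1 (0.067) in TGFb against Ctrl and no other.

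Depth limits Hspa1a, Hspa1b and Hspb1, whose counts per library reach 20 at most, and changes of those genes were not detectable at this depth unless large. Fits that leave a group with 2 libraries assume that the groups vary alike. All results rest on 3 libraries per group.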
